A study of Mus musculus with 4 samples.

Results

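Genes of Schwann cells, myelin and nerve were examined in tissue taken from around the femoral artery of mice, which the study describes as mostly perivascular adipose tissue (PVAT). The set is a list of 42 symbols chosen by function, with earlier results of these data known. Of these, 22 have a row among the 12661 genes of the deposited table. The other 20 (*Gjc3*, *Cldn19*, *Mal*, *Fa2h*, *Ugt8a*, *Pou3f1*, *Foxd3*, *Gldn*, *Gdnf*, *Matn4*, *Sostdc1*, *Cdh19*, *Gfra3*, *Gfap*, *Th*, *Dbh*, *Prph*, *Nefl*, *Nefm* and *Snap25*) were not analysed here. All mice were wild type C57BL/6, ovariectomized females aged 11 weeks. In the injury group (2 libraries) a wire was inserted into the femoral artery, the sham group (2 libraries) had a sham operation, and the tissue was collected 48 h later. The comparison asks which nerve genes differed around an injured artery.

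The deposited values are signed decimals whose median over genes is near 0 in each library, and what each gene's value is relative to is not given in the sources used here. They behave like logarithms of unknown base, so a difference is printed in deposited units, never as a fold. Levels of different genes cannot be compared on this scale, the sequencing depth is unknown, and whether a tissue lacks a cell type cannot be read from it. Of all genes, 3.67% were called lower and 3.76% higher after injury by limma at a Benjamini-Hochberg adjusted p under 0.05. An unadjusted p under 0.05, in either direction, was reached by 29.5% of all genes. Both injury libraries lay below both sham libraries in 30.3% of all genes and above them in 31.6%. Permuting 2 against 2 libraries gives no exact p smaller than 0.333 for 1 gene, so each adjusted p leans on the variance that limma shares across genes. Nothing in the labels ties a library to its own mouse, and the p-values measure only the spread between these libraries, which may be technical.

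Nerve bundles run through the fat and connective tissue beside arteries. A Schwann cell either wraps a single axon in myelin or holds several thin axons without it. Sox10 maintains Schwann cell identity, Egr2 drives the myelin programme, and compact myelin is built from proteins such as Mbp and Pmp22. After an axon is cut, its Schwann cells lower their myelin genes and enter a repair state in which Ngfr and Gdnf are known to rise. Sympathetic axons, which release noradrenaline, supply both artery and fat.

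Of the 22 genes, 3 were called lower after injury (*Dhh*, *Prx* and *Drp2*), against 3.67% of all genes, and 1 was called higher (*Egr2*), against 3.76%. The remaining 18 passed in neither direction. Both injury libraries lay below both sham libraries in 12 of the 22 (30.3% of all genes), above them in 3 (31.6% of all genes), and overlapped them in 7. The median difference (injury minus sham) was -0.43 over the 22 genes and 0.01 over all genes. The median value of the set was 0.22 and 0.09 in the sham libraries and -0.47 and -0.25 in the injury libraries. In bulk tissue fewer Schwann cells and less RNA per Schwann cell cannot be told apart.

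**Figure D1:**
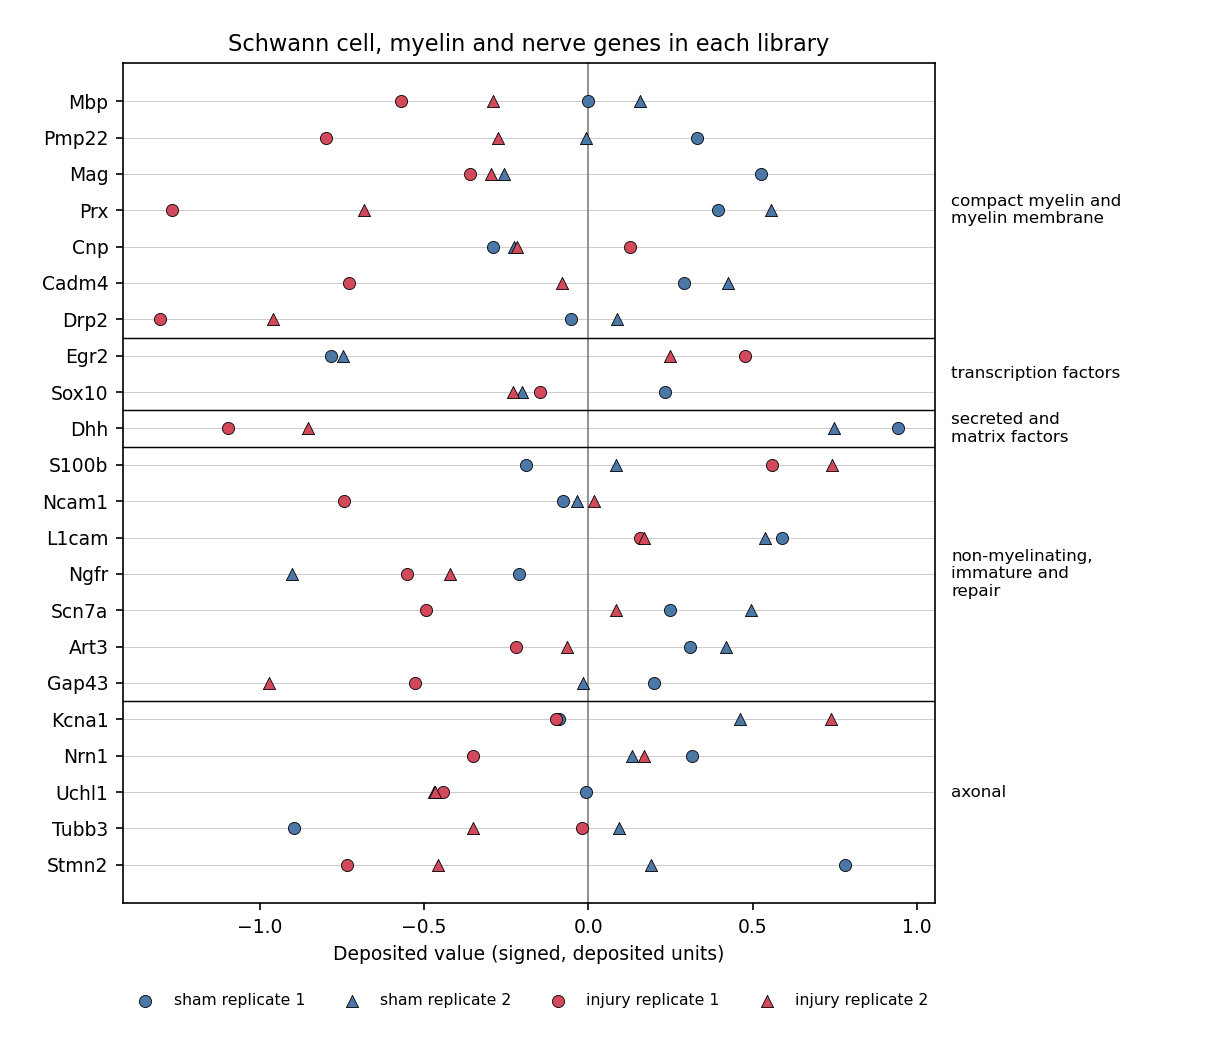
Deposited value (horizontal axis, deposited units) of each of the 22 genes in the 2 sham and 2 injury libraries, with genes ordered by role. The injury points of *Dhh*, *Prx* and *Drp2* lie left of the sham points, those of *Egr2* lie right of them, and those of *Sox10* overlap them.

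In the group of myelin membrane genes 7 of 10 were in the table, 2 of them called lower (3.67% of all genes) and none higher (3.76%). The median difference of the group was -0.70. Dropping injury replicate 1 moved this to -0.44, and dropping injury replicate 2 moved it to -0.96. *Prx* encodes periaxin, a scaffold protein that myelinating Schwann cells place on the outer face of the sheath, and lies on chromosome 7 of mm9 from 28284343 to 28305233 on the forward strand. *Prx* was at 0.39 and 0.56 after sham operation and at -1.27 and -0.68 after injury. The groups were apart, and the mean went from 0.47 ± 0.11 (SD, n = 2) to -0.97 ± 0.41 (SD, n = 2), a difference of -1.45 (SE 0.23, limma adjusted p = 0.0312). *Drp2*, on chromosome X from 130939090 to 130991112, encodes the dystrophin-related protein that joins periaxin to dystroglycan at the Schwann cell surface. *Drp2* was at -0.05 and 0.09 after sham operation and at -1.30 and -0.96 after injury. The groups did not overlap, and they differed by -1.15 (SE 0.17, limma adjusted p = 0.0304).

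The *Prx* and *Drp2* calls needed both sham libraries. Without sham replicate 1 the limma adjusted p was 0.176 for *Prx* and 0.176 for *Drp2*, and without sham replicate 2 it was 0.135 and 0.134. In those fits 0 and 1 genes of the whole table were called. Without injury replicate 1, *Prx* was at 0.0492 and *Drp2* at 0.0592. The difference itself stayed within -1.74 to -1.16 for *Prx* and -1.32 to -0.98 for *Drp2* over these fits and the fit without injury replicate 2.

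The bases around the start of *Prx* are shown because it had the lowest difference among the myelin membrane genes (RefSeq, GRCm38.p6). The stretch matched mm9 once, at chr7:28284093-28284392 on the forward strand. Capitals mark CATTCC, the reverse complement of GGAATG, letters to which TEAD factors bind, at position -37 from the start site.

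Prx promoter: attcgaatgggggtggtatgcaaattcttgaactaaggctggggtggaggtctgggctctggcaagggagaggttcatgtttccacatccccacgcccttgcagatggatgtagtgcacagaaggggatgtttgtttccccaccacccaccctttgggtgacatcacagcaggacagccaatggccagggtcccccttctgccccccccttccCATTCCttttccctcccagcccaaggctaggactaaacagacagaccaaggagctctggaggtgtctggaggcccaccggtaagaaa

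Among the other myelin membrane genes all but *Cnp* were lower in both injury libraries, and none passed the threshold. *Mbp*, which encodes myelin basic protein, was at 0.00 and 0.16 after sham operation and at -0.57 and -0.29 after injury, a difference of -0.51 (SE 0.16, limma adjusted p = 0.113). *Pmp22*, a membrane protein of compact myelin whose duplication causes an inherited neuropathy, was at 0.33 and -0.01 after sham operation and at -0.80 and -0.28 after injury, a difference of -0.70 (limma adjusted p = 0.119) that was -0.44 without injury replicate 1. *Cadm4*, an adhesion molecule on the face of the Schwann cell that touches the axon, was at 0.29 and 0.42 after sham operation and at -0.73 and -0.08 after injury. In each of these genes injury replicate 1 was the lowest library. Without injury replicate 2, *Pmp22* (limma adjusted p = 0.0420) and *Cadm4* (0.0192) were called lower. *Mag*, a glycoprotein that faces the axon, was at 0.53 and -0.26 after sham operation and at -0.36 and -0.30 after injury. Sample by sample, sham replicate 1 was high and the other libraries were close together, and the *Mag* difference of -0.46 was -0.07 without that library. *Cnp*, a phosphodiesterase of the myelin cytoplasm that other cells also make, was at -0.29 and -0.23 after sham operation and at 0.13 and -0.22 after injury, a difference of 0.21 (limma adjusted p = 0.447) that was 0.04 without injury replicate 1. In mm9 *Cnp* overlaps *Dnajc7* and *Prx* overlaps *Gm15541*, each on the opposite strand, and whether the counting used strand is not given in the sources used here.

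*Dhh* had the lowest difference of the 22 genes and ranked 50 from the lowest of 12661. It encodes desert hedgehog, the signal by which Schwann cells organise the perineurium, the cellular sleeve around a nerve bundle. *Dhh* was at 0.94 and 0.75 after sham operation and at -1.10 and -0.85 after injury. The groups were far apart, with a difference of -1.82 (SE 0.16, limma adjusted p = 0.0285), which stayed within -1.94 to -1.70 as single libraries were left out. Leaving out sham replicate 1 moved the limma adjusted p to 0.176, and leaving out sham replicate 2 moved it to 0.113. *Dhh* lies on chromosome 15 of mm9 from 98723462 to 98728971 on the reverse strand and overlaps no other annotated gene. The same window around its start (RefSeq, GRCm38.p6), matched once at chr15:98728922-98729221 on the reverse strand, is shown because *Dhh* moved most. It holds none of the motifs searched.

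Dhh promoter: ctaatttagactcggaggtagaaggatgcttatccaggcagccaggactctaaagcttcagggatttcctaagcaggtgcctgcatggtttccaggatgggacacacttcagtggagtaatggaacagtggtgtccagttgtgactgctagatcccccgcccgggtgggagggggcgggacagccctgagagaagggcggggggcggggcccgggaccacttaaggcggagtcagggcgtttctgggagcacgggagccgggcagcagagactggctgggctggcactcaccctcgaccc

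*Egr2*, the zinc finger factor of the myelin programme and also a gene of activated macrophages, rose. *Egr2* was at -0.78 and -0.75 after sham operation and at 0.48 and 0.25 after injury. Both injury libraries were above both sham libraries, and the difference was 1.13 (SE 0.15, limma adjusted p = 0.0291), ranked 437 from the highest. The limma adjusted p was 0.176 without sham replicate 1, 0.116 without sham replicate 2 and 0.0533 without injury replicate 1. Of 10 macrophage genes 5 were called higher (*Ccr2*, *Csf1r*, *Fcgr1*, *Itgam* and *Lyz2*), against 3.76% of all genes, and none lower, with a median difference of 1.43. *Cd163*, a scavenger receptor of resident macrophages, lay the other way, at 0.21 and -0.07 after sham operation and at -1.25 and -0.23 after injury, and was not called. Their median was -1.20 and -1.15 in the sham libraries and 0.59 and -0.20 in the injury libraries, so that injury replicate 1 stood above injury replicate 2 as it did for *Egr2*. The part of macrophages in the *Egr2* value was not tested. *Egr2* lies on chromosome 10 from 66998223 to 67004936. The most upstream of its 5 RefSeq windows (GRCm38.p6) matched mm9 at chr10:66997997-66998296 on the forward strand and is shown because it holds letters to which Egr factors bind. Capitals mark CGCCCAC, the reverse complement of GTGGGCG, at position -31.

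Egr2 promoter: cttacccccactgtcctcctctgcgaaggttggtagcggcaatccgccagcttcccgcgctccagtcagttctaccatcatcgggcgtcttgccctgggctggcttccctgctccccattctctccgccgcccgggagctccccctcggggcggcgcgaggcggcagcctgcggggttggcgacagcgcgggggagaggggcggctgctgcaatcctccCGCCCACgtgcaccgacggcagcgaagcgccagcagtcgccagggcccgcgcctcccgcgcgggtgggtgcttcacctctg

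Of the 22 genes 14 have a RefSeq start window, 26 windows in all, some of which share bases. The motifs, picked after the values were seen, were searched on both strands. ACAAAG, bound by Sox factors, occurred in 4 of the 26 windows and in 18.7% of all 32851. GTGGGCG occurred in 3 and in 7.97% of all, and GGAATG in 8 and in 14.7% of all.

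*Sox10*, the defining factor of the lineage, was at 0.23 and -0.20 after sham operation and at -0.15 and -0.23 after injury. The injury libraries lay within or just under the sham range, with a difference of -0.20 (SE 0.19, limma adjusted p = 0.519) that was 0.01 without sham replicate 1. Subtracting *Sox10* within each library left *Dhh* at 0.71 and 0.95 against -0.95 and -0.62. *Prx* minus *Sox10* was at 0.16 and 0.76 against -1.12 and -0.45, and *Drp2* minus *Sox10* at -0.28 and 0.29 against -1.16 and -0.73. These genes, the members already called lower, stayed apart between sham and injury. *Sox10* itself differed by only -0.20, so subtracting it left most of each gap in place and adds no test. *Mbp* minus *Sox10* overlapped, at -0.23 and 0.36 against -0.43 and -0.06.

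**Figure D2:**
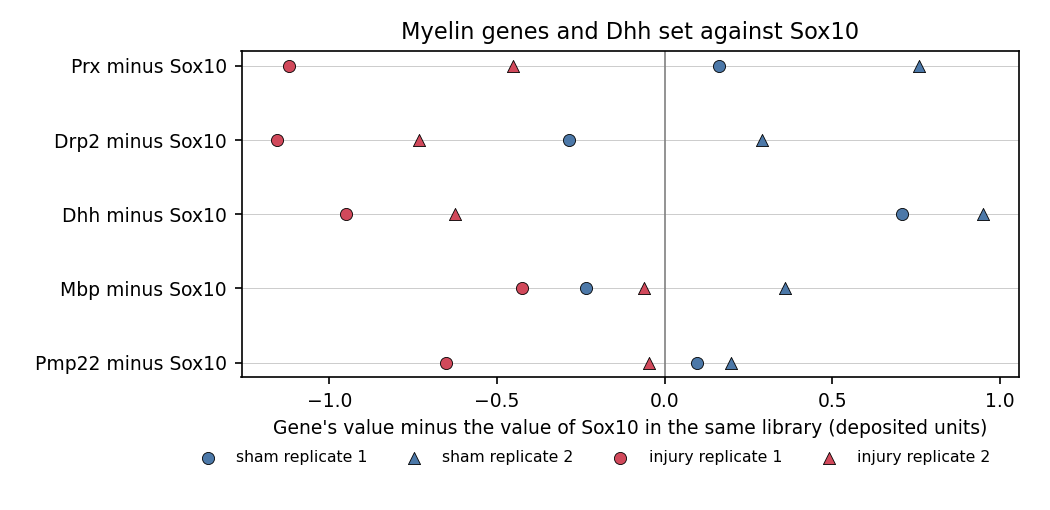
Value of each of 5 genes minus that of *Sox10* in the same library (horizontal axis, deposited units) for the sham and injury libraries. *Dhh*, *Prx*, *Drp2* and *Pmp22* keep the groups apart, and *Mbp* does not.

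The non-myelinating, immature and repair genes (7 of 10 in the table) had 0 calls by limma in either direction, 4 genes at an unadjusted p under 0.05 (29.5% of all genes), and a median difference of -0.40, which was -0.58 to -0.29 with single libraries left out. *Gap43*, a growth-associated protein of axons and immature Schwann cells, was at 0.20 and -0.02 after sham operation and at -0.53 and -0.97 after injury, a difference of -0.84 (SE 0.20, limma adjusted p = 0.0628). *Ngfr*, the low-affinity neurotrophin receptor, was at -0.21 and -0.90 after sham operation and at -0.55 and -0.42 after injury. The injury libraries lay inside the sham range for *Ngfr*, and both lay below it for *Gap43*. *S100b*, a calcium-binding protein used as a Schwann cell marker and also made by adipocytes, was at -0.19 and 0.08 after sham operation and at 0.56 and 0.74 after injury, a difference of 0.70 (SE 0.16, limma adjusted p = 0.0615). Both injury libraries were above both sham libraries, and the gene overlaps *Dip2a* on the opposite strand. The adhesion molecule *L1cam* was at 0.59 and 0.54 after sham operation and at 0.16 and 0.17 after injury, a difference of -0.40 (limma adjusted p = 0.119) with close replicates. *Ncam1*, an adhesion molecule that denervated muscle also makes, was at -0.08 and -0.03 after sham operation and at -0.74 and 0.02 after injury, with injury replicate 1 alone standing low. *Scn7a*, a sodium channel of non-myelinating Schwann cells, was at 0.25 and 0.50 after sham operation and at -0.49 and 0.08 after injury, and was called lower without injury replicate 2 (limma adjusted p = 0.0436, against 0.169 with all libraries). *Art3*, a surface ADP-ribosyltransferase whose gene spans *Cxcl10* and *Cxcl11* on the opposite strand, was at 0.31 and 0.42 after sham operation and at -0.22 and -0.06 after injury (limma adjusted p = 0.0883).

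Among the axonal genes 5 of 11 were in the table, 0 were called by limma and 1 had an unadjusted p under 0.05 (29.5% of all genes). The median difference was -0.21, and it was -0.06 without injury replicate 1 and -0.41 without sham replicate 2. The gene under 0.05 was *Stmn2*, a microtubule regulator of growing axons, at 0.78 and 0.19 after sham operation and at -0.73 and -0.46 after injury. The groups were apart, with a difference of -1.08 (SE 0.24, limma adjusted p = 0.0545), and *Stmn2* was called lower after quantile normalization (0.0405), with columns scaled to one spread (0.0384) and without injury replicate 2 (0.0476). Groups overlapped in the other 4 genes. *Tubb3*, a neuronal tubulin, was at -0.89 and 0.09 after sham operation and at -0.02 and -0.35 after injury. *Uchl1*, a neuronal ubiquitin hydrolase, was at -0.01 and -0.47 after sham operation and at -0.44 and -0.47 after injury. *Nrn1*, which promotes neurite growth, was at 0.31 and 0.13 after sham operation and at -0.35 and 0.17 after injury, and *Kcna1*, a potassium channel beside the node of Ranvier, at -0.09 and 0.46 after sham operation and at -0.10 and 0.74 after injury. The sham libraries stood further apart in this group, with a median gap of 0.55 against 0.15 over all genes. The markers of sympathetic axons *Th* and *Dbh* were not analysed here.

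**Figure D3:**
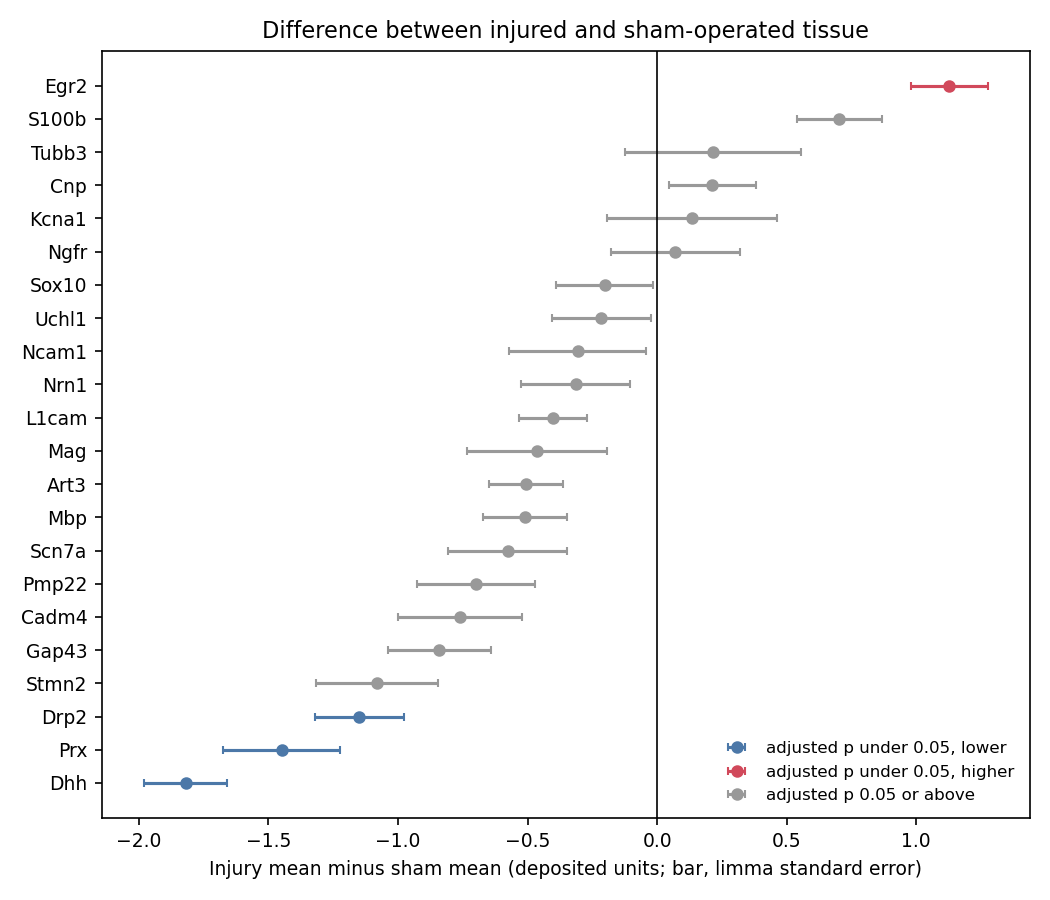
Injury mean minus sham mean (horizontal axis, deposited units) of the 22 genes, with the limma standard error as the bar and the call as the colour. *Dhh*, *Prx* and *Drp2* were called lower and *Egr2* higher, and 16 of the 22 points lie below 0.

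Further genes of the same pathways came from lists chosen with earlier results known. Of 17 other myelin and node genes 8 were in the table, 2 of them called lower (3.67% of all genes) and none higher, with a median difference of -0.24. Both injury libraries lay below both sham libraries in 4 of the 8 (30.3% of all genes) and above them in 4 (31.6% of all genes), namely *Aspa*, *Cntnap1*, *Dlg1* and *Mpp6*, none of them called. *Adgrg6*, the receptor that Schwann cells need to start myelination, differed by -1.21 (limma adjusted p = 0.0308), and *Tspan2*, a tetraspanin of myelinating glia, by -1.27 (0.0291). Of 13 other regulators of Schwann cells 8 were in the table, with 0 calls by limma and 2 at an unadjusted p under 0.05 (29.5% of all genes), *Erbb2* and *Nab1*. *Erbb2*, a subunit of the neuregulin receptor, was at 0.45 and 0.28 after sham operation and at -0.25 and -0.38 after injury, a difference of -0.68 (limma adjusted p = 0.0530). *Jun*, the factor of the repair state, was at 0.01 and -0.38 after sham operation and at 0.41 and -0.11 after injury, with overlap. *Nab1* and *Nab2*, which bind Egr proteins and repress or assist them, differed by -0.41 and 0.14, neither of them called.

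Of 12 ligands and receptors of repair 8 were in the table, 1 called lower (3.67% of all genes) and none higher (3.76%). The median difference of the 8 was -0.15. The called gene was *Ret*, the signalling receptor for GDNF, at 1.17 and 1.19 after sham operation and at -0.64 and -0.50 after injury (difference -1.75, limma adjusted p = 0.0285). Of 5 perineurial genes 3 were in the table, with 1 called lower (3.67% of all genes) and none higher (3.76%). This was *Itgb4*, a laminin-binding integrin of Schwann cells, perineurium and epithelia. The other perineurial genes, *Cldn1* and *Slc2a1*, overlapped between the groups and differed by 0.31 and 0.20, which left the list's median difference at 0.20. *Itgb4* was at 0.94 and 1.30 after sham operation and at -1.20 and -0.89 after injury (difference -2.16, limma adjusted p = 0.0285). Of 19 other neuronal genes 3 were in the table, with 0 calls by limma and 1 at an unadjusted p under 0.05 (29.5% of all genes). That gene was *Syp*, a synaptic vesicle protein, with both injury libraries above both sham libraries, at -0.06 and 0.22 after sham operation and at 0.59 and 0.66 after injury (limma adjusted p = 0.0897). The differences of the others were 0.05 for *Rtn1* and 0.02 for *Slc18a2*, the vesicular monoamine transporter, with overlap.

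Partners of periaxin and of desert hedgehog were looked up after the values above were seen, so they carry no test. *Dag1*, the dystroglycan gene, was at 0.38 and 0.41 after sham operation and at 0.04 and 0.03 after injury. *Utrn* was at 0.69 and 0.49 against -0.40 and -0.14, and *Lama2*, a laminin of the Schwann cell basal lamina, at 0.30 and -0.03 against -0.59 and -0.43. Both injury libraries lay below both sham libraries in 8 of 8 genes of this complex (30.3% of all genes), several of which muscle also uses, with differences from -1.19 (*Dmd*) to -0.26 (*Lamc1*). Of 7 genes in the table on the receiving side of hedgehog signals, 5 had the injury libraries under the sham libraries (30.3% of all genes), 1 had them above (31.6% of all genes) and 1 overlapped (*Gas1*, difference 0.01). The gene above was *Gli3*, at -0.42 and -0.02 against 0.08 and 0.24. *Cdon*, a hedgehog coreceptor, was at 0.38 and 0.65 against -0.43 and -0.29. The signal transducer *Smo* was at 0.26 and -0.03 against -0.64 and -0.51 and *Gli1*, a target of the pathway, at 0.34 and 0.00 against -0.16 and -0.17.

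Marker lists of other cell types were set beside these values. The median of 7 smooth muscle genes was 1.72 and 1.03 in the sham libraries and -1.39 and -0.20 in the injury libraries. Of these 7 genes, 4 were called lower (3.67% of all genes). For 7 endothelial genes the median was 0.81 and 0.67 against -0.20 and -0.18, with 2 called lower (3.67% of all genes). Skeletal muscle genes (7 of 12 in the table) were at 0.78 and -0.08 against -0.19 and -0.39, with 0 calls by limma. An unadjusted p under 0.05 was reached by 4 of them (29.5% of all genes). Among these 4, *Pvalb* went the other way, at 0.10 and -0.70 after sham operation and at 0.72 and 0.91 after injury. The list of 10 adipocyte genes was at 0.26 and 0.34 against -0.15 and 0.29, with 1 called lower (*Plin1*, against 3.67% of all genes). Genes of denervated muscle (3 of 8 in the table) had 0 calls by limma and 2 at an unadjusted p under 0.05 (29.5% of all genes), *Runx1* (0.93) and *Gadd45a* (0.72), both with the injury libraries above the sham libraries, and a median difference of 0.72. Of the epithelial and lymphocyte lists only *Cdh1* and *Lck* were in the table, and neither was called. Injury replicate 1 was lower than injury replicate 2 in 16 of the 22 nerve genes, against 51.1% of all genes. The same held in 7 of 7 smooth muscle, 9 of 10 adipocyte, 5 of 7 endothelial, 3 of 7 skeletal muscle and 1 of 10 macrophage genes. The part of these cell types in the nerve gene values was not tested.

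**Figure D4:**
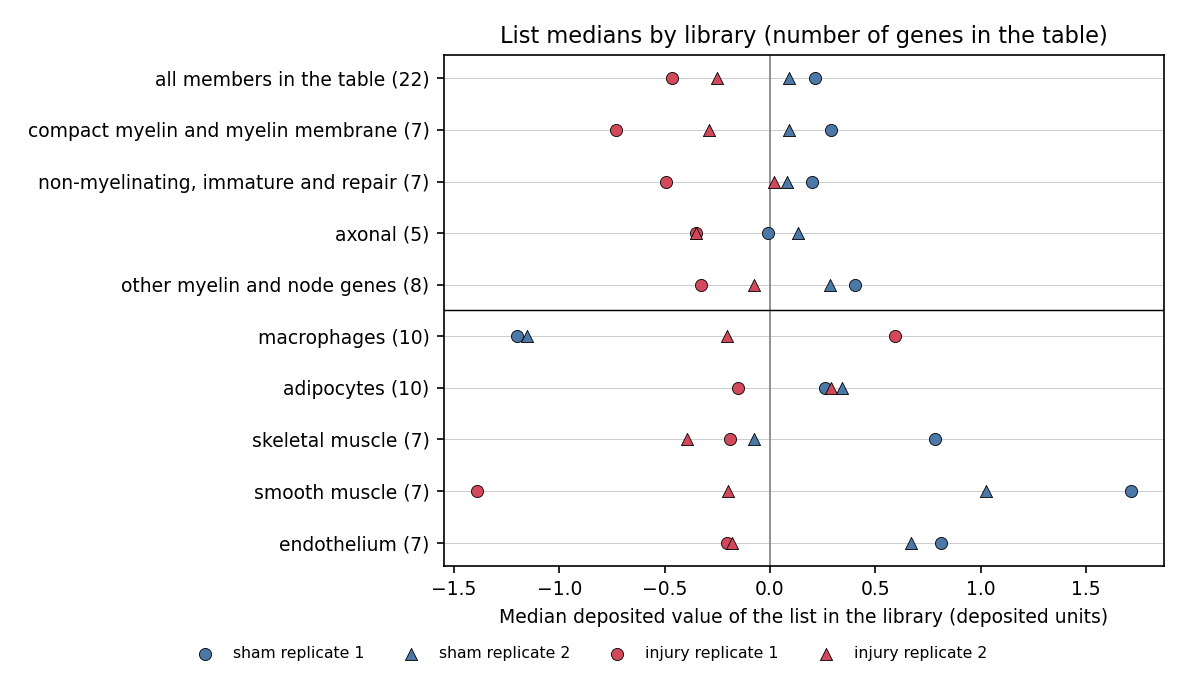
Median deposited value of 5 nerve lists and 5 lists of other cell types (horizontal axis, deposited units) in the sham and injury libraries. The smooth muscle medians lie lower after injury and the macrophage medians higher, and the medians of the 22 nerve genes lie lower after injury.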

How the data were processed

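Libraries of 2 sham and 2 injury samples were made by the authors with a stranded mRNA kit. Per the study's methods and the submitters' processing notes, reads were checked with FastQC 0.11.8, trimmed with cutadapt 1.18 and Trimmomatic 0.39, aligned to mm9 with STAR 2.6.0a, counted with featureCounts and tested with DESeq2 1.28.0 on R 3.6.0. The deposited values are a signed, log-like score per gene and not counts. How the authors went from counts to this score, and by what filter genes were kept, is not given in the sources used here. The count test of the study could therefore not be run, and no filter on low values was applied.

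Scores of all 12661 genes were fitted with limma 3.58.1 in R 4.3.3 (group as the only term), with Benjamini-Hochberg adjustment over all genes. The fit was tested on simulated data. The members and lists were chosen with earlier results of these data known, and the dystroglycan and hedgehog lists and the motifs after these values were seen. Every member in the table was named. Of the other lists, some genes of known role were named beside called ones, picked after their values were seen. Some genes of the list of other myelin genes are not reported here, so its counts and median describe the remaining genes only. Gene positions are from GENCODE on NCBIM37 (mm9), and RefSeq start windows (GRCm38.p6) were matched to mm9 by sequence. Alternatives were a block for the replicate number, dropping single libraries, quantile normalization, scaling every column to one spread, a robust prior for the variance, counting repeated rows a single time, and a threshold of 0.1. Tables and plots used pandas 2.3.3 and matplotlib 3.10.9 in Python 3.11.15.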

Additional observations from a re-analysis of the deposited data

How the results depend on the processing

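The calls of *Dhh*, *Prx*, *Drp2* and *Egr2* were kept in all 5 alternative fits to the 4 libraries. At an adjusted p under 0.1, 6 genes of the set were called lower and 2 higher. At that threshold 1151 genes of the whole table were called lower and 1166 higher. With each library left out in turn, 0 to 7 were called lower and 0 to 1 higher, and the median difference was -0.58 to -0.33. None was called without either sham library, and a lone library is assumed to vary like the other group. Dropping injury replicate 2 moved the difference of *Pmp22* from -0.70 to -0.96 and of *Cadm4* from -0.76 to -1.09. It moved *Scn7a* from -0.58 to -0.86 and *Stmn2* from -1.08 to -1.22. Same-numbered libraries did not deviate together (correlation -0.09), so the numbers were not read as pairs. With a replicate block 3 genes of the set were lower and 1 higher, and 303 genes were lower and 381 higher over the table. No called gene changed direction. Among genes not called, the sign turned without sham replicate 1 (*Sox10*, *Kcna1*, *Uchl1* and *Tubb3*), sham replicate 2 (*Ngfr*), injury replicate 1 (*Ncam1*) or injury replicate 2 (*Kcna1*). The causes were not tested. Depth is unknown, so genes of low abundance could not be set apart or filtered.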
